A study of Sus scrofa with 61 samples.

Results

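The membrane pumps and channels described here are ATP1B1, SCN4A, CLCN1, KCNJ11, AQP1 and AQP4, 6 genes whose products move ions or water across the membrane of skeletal muscle or of its vessels. All probes that the array's annotation assigns to these symbols were taken, whatever their signal. The array held 13 such probes for 4 of the 6 genes, of 60305 probes and 10721 gene symbols known to RefSeq: 5 probes for ATP1B1, 2 for KCNJ11, 3 for AQP1 and 3 for AQP4. No probe was assigned to SCN4A or CLCN1, so the muscle sodium channel and the muscle chloride channel were not analysed here. The data are 61 one-colour arrays of longissimus muscle, 1 per male pig fetus taken by caesarean, in 8 groups. The 4 fetal genotypes were LWLW (Large White sow and boar), MSMS (Meishan sow and boar), LWMS (Meishan sow, Large White boar) and MSLW (Large White sow, Meishan boar). At day 90 of gestation each genotype had 8 fetuses, and at day 110 there were 9 LWLW, 7 MSMS, 8 LWMS and 5 MSLW fetuses. Sows were inseminated with semen of both breeds, so a litter mixed purebred and crossbred fetuses. The labels do not give the sow of each fetus, so littermates were counted as separate fetuses and the p-values do not allow for shared litters. The comparisons address how muscle expression changed over the last weeks before birth, and whether that change differed between a breed with high and a breed with low mortality at birth.

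A muscle fibre fires when sodium enters through voltage-gated channels, and it returns to rest through potassium and chloride channels. The Na,K-ATPase then restores the gradients: its alpha subunit carries the ions and its beta subunit, such as ATP1B1, is needed for the pump to fold and reach the membrane. KCNJ11 forms the pore of the ATP-sensitive potassium channel, which opens when the energy state of the cell falls. AQP1 is the water channel of capillary endothelium and red cells, and AQP4 is the water channel of the membrane of fast fibres, held there by the dystrophin complex.

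The probe sequences below show what was measured. The first set holds, for each of the 4 genes, 1 probe that the design places within a named transcript and that has at least 1 reading frame without a stop. Each is 60 bases, 5′ to 3′, as the scanner files give it.
ATP1B1 probe 5: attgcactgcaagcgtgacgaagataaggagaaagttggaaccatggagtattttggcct
KCNJ11 probe 2: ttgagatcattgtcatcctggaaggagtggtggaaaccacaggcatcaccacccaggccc
AQP1 probe 3: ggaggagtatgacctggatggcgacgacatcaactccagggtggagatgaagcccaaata
AQP4 probe 3: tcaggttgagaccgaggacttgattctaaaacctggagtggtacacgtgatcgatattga
By the array design's annotation they start at bases 760, 841, 755 and 799 of their transcripts, and no genome position is given. Their GC content was 45%, 55%, 53.3% and 45%.

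ATP1B1 was read by 5 probes, of which probes 2, 3 and 4 lie on overlapping stretches of the same design sequence and share the 13 bases in capitals. Windows of 30 bases are shown because they make clear that these probes are not separate measurements of separate regions.
ATP1B1 probe 4: tatgtcataattgccagGAGTACAGTGCTC
ATP1B1 probe 2: ttgccagGAGTACAGTGCTCttgttgatct
ATP1B1 probe 3: GAGTACAGTGCTCttgttgatcttgtattc
Probes 2 and 3 had a run of 28 bases in common. The probes of AQP1, of AQP4 and of KCNJ11 shared at most 6 bases in a row within a gene, and probes of different genes shared at most 8.

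Every one of the 13 probes was well above background on all 61 arrays, and none was saturated. Values are log2 of the background-corrected intensity, quantile normalized over the arrays. Probes are numbered within a gene from the brightest, and levels are compared only within a probe. Fetuses are numbered within their group, not by the fetus number in the labels. The brightest probe of each gene, given in full below, is A_72_P036071 for ATP1B1, A_72_P001531 for KCNJ11, A_72_P368933 for AQP1 and A_72_P226212 for AQP4. The array design assigns that of ATP1B1 through a RefSeq transcript. It assigns those of KCNJ11, AQP1 and AQP4 through sequence records that are not RefSeq transcripts. The array of MSLW fetus 2 at day 90 had the lowest median correlation with its group (0.962, against at least 0.978 for all others) and 752 spots marked as non-uniform. MSLW fetus 8 at day 90 had 537 such spots, against a median of 16 per array, and LWLW fetus 8 at day 90 had 802 but correlated at 0.983. Leaving out either of those MSLW fetuses changed no call of the 13 probes. Because whole muscle was ground, fewer cells of a type and less RNA per cell cannot be told apart.

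All 4 measured genes rose between day 90 and day 110: 13 of 13 probes rose over the 4 genotypes, where 72.3% of the 42436 tested probes were called in either direction and 15827 of them rose. By genotype 13 rose in LWLW (45.3% of all tested probes called in either direction), 12 in MSMS (56.7%), 13 in LWMS (50.9%) and 12 in MSLW (44.6%). The tested probes called as rising numbered 9258 in LWLW, 12137 in MSMS, 10659 in LWMS and 8825 in MSLW. The test of any difference among the 8 groups called all 13, against 72.2% of all tested probes. The median change of the 13 probes was 1.79 and that of all tested probes was 0.04. Day 110 lay above day 90 without overlap for 5 of 13 probes over all fetuses (3.99% of all tested probes), 9 in LWLW (10.4%), 10 in MSMS (18.6%), 10 in LWMS (14.1%) and 10 in MSLW (12.4%). Since several probes read the same gene, the 13 are not independent. With 75th percentile scaling the median of all probes in MSMS moved from 0.03 to 0.13, and no other age change of all probes moved as far.

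**Figure D1:**
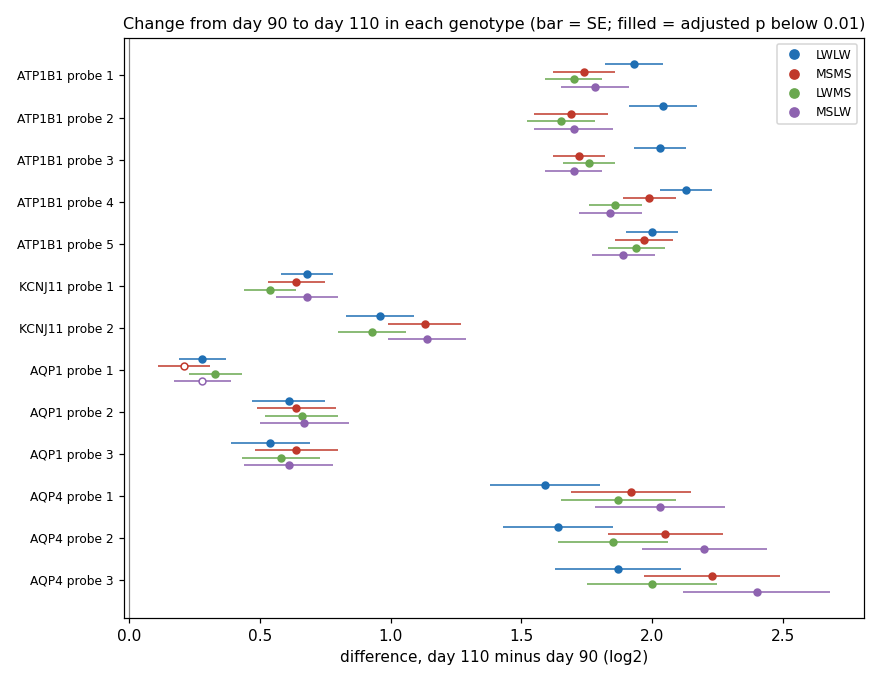
Change from day 90 to day 110 (log2, horizontal axis) of each of the 13 probes in each genotype, with SE bars and filled points where the adjusted p was below 0.01. All 52 points lie above 0, those of ATP1B1 and AQP4 between 1.59 and 2.40, and the open points are AQP1 probe 1 in MSMS (0.21) and MSLW (0.28).

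MSMS fetuses were above LWLW fetuses on 10 of 13 probes at day 90 (12.8% of all tested probes called in either direction) and on 8 of 13 at day 110 (29% called), and no member was called lower. All of these calls belonged to ATP1B1, AQP1 and AQP4. Of all tested probes 2643 were called higher in MSMS at day 90 and 5832 at day 110. MSMS lay above LWLW without overlap for 2 of 13 probes at day 90 (3.09% of all tested probes) and for 1, ATP1B1 probe 5, at day 110 (3.77%). Whether the age change differed between MSMS and LWLW was tested directly: 0 of 13 probes passed (5.95% of all tested probes called), and 1 was at an unadjusted p under 0.05, ATP1B1 probe 3 (-0.31 ± 0.14, adjusted p = 0.14). For AQP4 the difference in age change was 0.33 ± 0.31 (interval -0.28 to 0.95, adjusted p = 0.52). For ATP1B1 it was -0.19 ± 0.16 (interval -0.51 to 0.13), for KCNJ11 -0.04 ± 0.14 (interval -0.32 to 0.25) and for AQP1 -0.07 ± 0.14 (interval -0.35 to 0.20) on the brightest probes. With 75th percentile scaling these became 0.11 for ATP1B1, 0.18 for KCNJ11 and 0.22 for AQP1, so their sign depended on the scaling, and none passed. Over all tested probes that scaling raised the share of higher calls in this comparison from 43% to 63.7%.

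**Figure D2:**
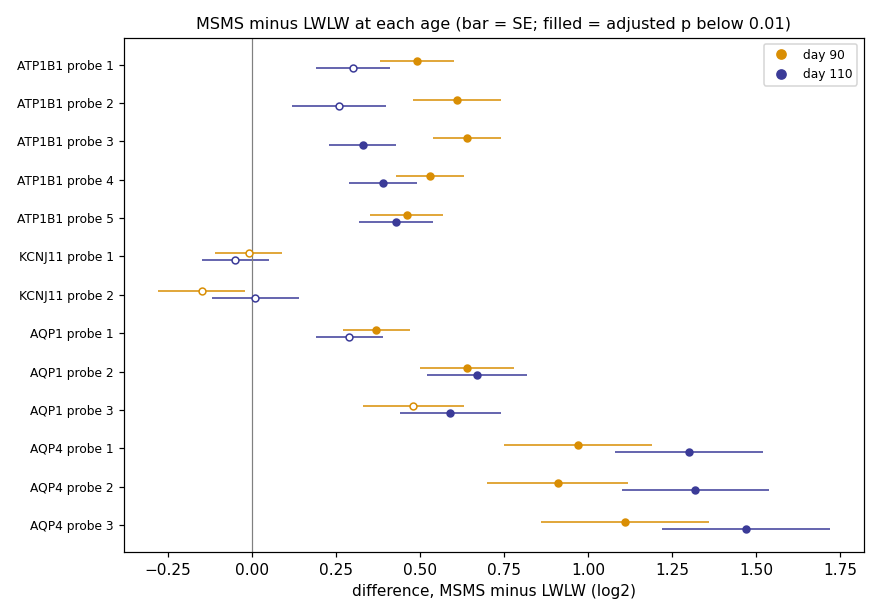
MSMS minus LWLW (log2, horizontal axis) for each of the 13 probes at day 90 and day 110, with SE bars and filled points where the adjusted p was below 0.01. The 3 AQP4 probes lie furthest to the right (0.91 to 1.47), and both KCNJ11 probes have open points between -0.15 and 0.01.

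ATP1B1 rose between day 90 and day 110 in all 4 genotypes. On the brightest probe LWLW fetuses at day 90 ranged from 12.19 to 13.18 (median 12.62), MSMS fetuses from 12.85 to 13.33 (median 13.12), LWMS fetuses from 12.73 to 13.54 (median 13.05) and MSLW fetuses from 12.20 to 13.33 (median 13.09). At day 110 LWLW fetuses ranged from 14.42 to 14.68 (median 14.61), MSMS fetuses from 14.56 to 15.06 (median 14.87) and LWMS fetuses from 14.56 to 15.00 (median 14.81). The 5 MSLW fetuses at day 110 read 14.75, 14.94, 14.44, 14.84 and 14.81. Every fetus at day 110 lay above every fetus at day 90, and this held for each of the 5 probes and for 3.99% of all tested probes. The change over the 4 genotypes was 1.79 ± 0.06 (SE) on the log2 scale, a 3.45-fold rise with a 95% interval of 3.18 to 3.74 (limma, adjusted p = 6.9e-35). The other probes gave 1.77 to 1.95, and the change was above 0 on each of the 8 slides (1.58 to 2.44 over the probes). The size depended on the scaling: 75th percentile scaling gave 2.21 ± 0.06 on the brightest probe and 2.16 to 2.21 on the others.

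The order of the 8 groups on this probe followed age first: LWLW, MSLW, LWMS and MSMS at day 90, then LWLW, MSLW, LWMS and MSMS at day 110. The step between the ages, from MSMS at day 90 to LWLW at day 110, was 1.44 against a larger SD of 0.15. No other neighbours in that order differed beyond their spread. At day 90 MSMS fetuses were above LWLW fetuses by 0.49 ± 0.11, 1.41-fold (adjusted p = 0.00067), and all 5 probes passed with differences of 0.46 to 0.64. At day 110 the difference on the brightest probe was 0.30 ± 0.11 (adjusted p = 0.027), which did not pass the threshold of 0.01, while probes 3, 4 and 5 passed (0.33, 0.39 and 0.43). With scaling to the 75th percentile in place of quantile normalization that difference was 0.58 on the brightest probe and 0.54 on probe 2, and all 5 probes passed. Within slides it was above 0 on 8 of 8 slides at day 90 for each probe, and on 5 or 6 of the 6 slides that held both breeds at day 110. Leaving out slides 1, 3, 4, 6 or 7 ended the day 110 call of probe 3 (0.29 to 0.34), and leaving out slides 6 or 7 ended that of probe 4 (0.32 and 0.37).

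KCNJ11 also rose with age, and no breed difference passed the test. The array design assigns probe 1 to KCNJ11 through an expressed sequence tag that could not be matched to a RefSeq transcript, whereas probe 2 lies in a named transcript. On the brightest probe LWLW fetuses at day 90 ranged from 12.79 to 13.40 (median 13.16), MSMS fetuses from 12.96 to 13.28 (median 13.12), LWMS fetuses from 12.96 to 13.34 (median 13.18) and MSLW fetuses from 12.53 to 13.47 (median 13.20). At day 110 LWLW fetuses ranged from 13.50 to 14.22 (median 13.71), MSMS fetuses from 13.62 to 13.89 (median 13.78) and LWMS fetuses from 13.12 to 13.95 (median 13.78). The 5 MSLW fetuses at day 110 read 13.84, 13.84, 13.65, 13.94 and 13.87. The ages did not overlap in LWLW, MSMS and MSLW, where 10.4%, 18.6% and 12.4% of all tested probes were higher at day 110 without overlap. In LWMS the ages overlapped through its fetus 8, the lowest of that group at 13.12. The change was 0.64 ± 0.05, 1.55-fold (interval 1.44 to 1.67, adjusted p = 2e-16). Probe 2 gave 1.04 ± 0.07, 2.06-fold (adjusted p = 9e-21), and on it the ages overlapped only in LWLW. With 75th percentile scaling the brightest probe gave 0.99 ± 0.05, and probe 2 gave 1.01 ± 0.07.

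Among the 4 groups of either age no neighbours of KCNJ11 differed beyond their spread, and the step from the highest group at day 90 to the lowest at day 110 (0.54 against an SD of 0.27) did. MSMS minus LWLW was -0.01 ± 0.10 at day 90 (95% interval -0.22 to 0.19, adjusted p = 0.95) and -0.05 ± 0.10 at day 110 (interval -0.25 to 0.16, adjusted p = 0.74), where 75th percentile scaling turned the sign (0.15, adjusted p = 0.23). Probe 2 gave -0.15 ± 0.13 (interval -0.42 to 0.11) and 0.01 ± 0.13 (interval -0.26 to 0.27). Within slides the sign of the difference varied: it was above 0 on 3 to 5 of 8 slides at day 90 and on 2 to 3 of 6 at day 110. The residuals of its probes, after removal of group and slide means, correlated at 0.30 over the 61 arrays.

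AQP1, the water channel of endothelium, rose by 1.21-fold to 1.56-fold, depending on the probe. On the brightest probe LWLW fetuses at day 90 ranged from 14.77 to 15.39 (median 15.11), MSMS fetuses from 15.31 to 15.55 (median 15.51), LWMS fetuses from 15.14 to 15.54 (median 15.36) and MSLW fetuses from 15.02 to 15.58 (median 15.30). At day 110 LWLW fetuses ranged from 15.12 to 15.64 (median 15.40), MSMS fetuses from 15.49 to 15.90 (median 15.63) and LWMS fetuses from 15.34 to 15.89 (median 15.72). The 5 MSLW fetuses at day 110 read 15.29, 15.43, 15.77, 16.07 and 15.25. The ages overlapped in every genotype, and no neighbours in the order of the 8 groups differed beyond their spread on this probe. Its change over the 4 genotypes was 0.27 ± 0.05, 1.21-fold (interval 1.13 to 1.30, adjusted p = 2.2e-06), and it was above 0 on 8 of 8 slides. Probe 2 (O8316) gave 0.65 ± 0.08, 1.56-fold, and probe 3 gave 0.59 ± 0.08, 1.51-fold.

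The size of the AQP1 change on the bright probe depended on the scaling: 75th percentile scaling gave 0.78 ± 0.05 (adjusted p = 4.5e-20), 2.86 times the quantile value, while probes 2 and 3 gave 0.62 and 0.56. Within genotypes it passed in LWLW (0.28 ± 0.09, adjusted p = 0.0089) and LWMS (0.33 ± 0.10, adjusted p = 0.0028). It missed the threshold in MSMS (0.21 ± 0.10, adjusted p = 0.059) and in MSLW (0.28 ± 0.11, adjusted p = 0.029), and the latter passed without MSLW fetus 5 of day 110 (0.35). With 75th percentile scaling both passed, at 0.87 in MSMS (adjusted p = 2.4e-10) and 0.80 in MSLW (adjusted p = 4e-08). The LWLW call was lost when slides 1, 2, 3, 4, 6, 7 or 8 were left out (0.23 to 0.30) and when dim probes were not filtered (0.28, adjusted p = 0.013), and the LWMS call without slides 2, 6 or 7 (0.28 to 0.31). On probe 3 the MSLW change of 0.61 missed the threshold without MSLW fetus 4 of day 110 (0.51) or without slide 1 (0.58), and its LWLW change of 0.54 missed it without slide 7 (0.42).

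MSMS fetuses had more AQP1 signal than LWLW fetuses at both ages. On the bright probe the difference was 0.37 ± 0.10 at day 90, 1.29-fold (adjusted p = 0.0038), and 0.29 ± 0.10 at day 110 (adjusted p = 0.012), which missed the threshold. The day 90 call was lost without slides 1, 2, 3 or 7 (0.31 to 0.36) and with 75th percentile scaling (0.34, adjusted p = 0.012). At day 110 75th percentile scaling gave 0.57 (adjusted p = 1e-05), the slide as a block gave 0.32 (adjusted p = 0.0029), and the difference also passed without slide 2 or slide 8 (0.33 in each) or without MSLW fetus 4 of day 110 (0.29). Probe 2 gave 0.64 ± 0.14 at day 90 (adjusted p = 0.00061) and 0.67 ± 0.15 at day 110 (adjusted p = 0.00017). On it MSMS fetuses at day 90 (8.25 to 8.78) all lay above LWLW fetuses (7.56 to 8.15). Probe 3 gave 0.48 ± 0.15 at day 90 (adjusted p = 0.015), which passed with the slide as a block (0.48 ± 0.14, adjusted p = 0.008), and 0.59 ± 0.15 at day 110 (adjusted p = 0.0014). The difference was above 0 on all 8 slides at day 90 and on all 6 at day 110, for each of the 3 probes.

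AQP4, the water channel of fast fibres, rose in all 4 genotypes and was higher in MSMS than in LWLW at both ages. On the brightest probe LWLW fetuses at day 90 ranged from 9.20 to 9.96 (median 9.43), MSMS fetuses from 10.03 to 11.16 (median 10.42), LWMS fetuses from 9.47 to 10.86 (median 10.29) and MSLW fetuses from 9.73 to 10.85 (median 10.07). At day 110 LWLW fetuses ranged from 10.01 to 12.02 (median 10.88), MSMS fetuses from 11.75 to 12.78 (median 12.52) and LWMS fetuses from 11.59 to 12.46 (median 12.08). The 5 MSLW fetuses at day 110 read 12.31, 12.39, 11.80, 12.55 and 12.05. Within each genotype the ages did not overlap, on any of the 3 probes. Of all tested probes, 10.4% (LWLW) to 18.6% (MSMS) were higher at day 110 without overlap within a genotype. Across genotypes the ages of AQP4 overlapped, since the lowest LWLW fetus at day 110 (10.01) lay below the lowest MSMS fetus at day 90 (10.03). The change over the 4 genotypes was 1.85 ± 0.11, 3.61-fold (interval 3.08 to 4.22, adjusted p = 5e-22), and probes 2 and 3 gave 1.94 ± 0.11 and 2.12 ± 0.13. It was above 0 on each of the 8 slides (1.55 to 2.32 over the probes).

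The LWLW group was the lowest at each age, and its distance to the next group exceeded the spread. At day 90 LWLW (9.51 ± 0.27, SD, n = 8) lay 0.68 below LWMS (10.18 ± 0.49, n = 8), and at day 110 LWLW (11.09 ± 0.70, n = 9) lay 0.96 below LWMS (12.05 ± 0.31, n = 8). Neighbours among the crosses and MSMS did not differ beyond their spread within an age. MSMS fetuses exceeded LWLW fetuses by 0.97 ± 0.22 at day 90, 1.95-fold (interval 1.44 to 2.64, adjusted p = 0.00062). At day 110 they exceeded them by 1.30 ± 0.22, 2.47-fold (interval 1.82 to 3.34, adjusted p = 2.9e-06). Probes 2 and 3 passed at both ages (0.91 and 1.11 at day 90, 1.32 and 1.47 at day 110). The breeds did not overlap at day 90 on the brightest probe, and they overlapped at day 110, where LWLW fetuses spread from 10.01 to 12.02. Within slides the difference at day 110 was above 0 on 5 of 6 slides for each probe, with a lowest value of -0.34. LWLW was the lowest group within each age on every probe of ATP1B1 and AQP1 as well. Its distance to the next group at day 90 also exceeded the spread on ATP1B1 probes 3, 4 and 5 and on AQP1 probe 2. At day 110 it did so on ATP1B1 probe 5.

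**Figure D3:**
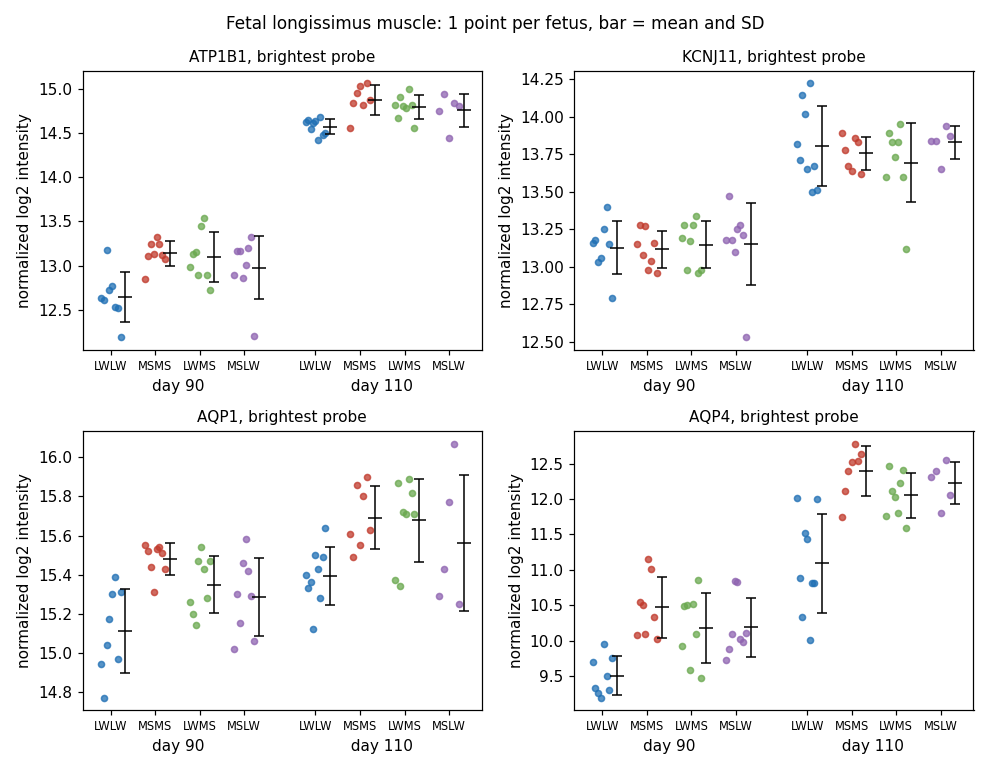
Normalized log2 intensity of the brightest probe of ATP1B1, KCNJ11, AQP1 and AQP4 (vertical axes) in each fetus, by genotype and gestational day (horizontal axes), with mean and SD as bars. ATP1B1 separates the ages in all fetuses, from at most 13.54 at day 90 to at least 14.42 at day 110, and AQP1 overlaps between ages. The means of ATP1B1, AQP1 and AQP4 are lowest in LWLW at both ages.

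The reciprocal crosses carry the same breeds with the roles of sow and boar exchanged. LWMS against MSLW gave 0 of 13 calls at day 90 (0.5% of all tested probes called) and 0 of 13 at day 110 (0.912%), with limma, and 0 probes were at an unadjusted p under 0.05 at either age. On the brightest probes at day 110 LWMS minus MSLW was 0.04 ± 0.13 for ATP1B1 (interval -0.22 to 0.29), -0.14 ± 0.12 for KCNJ11 (interval -0.37 to 0.10), 0.12 ± 0.11 for AQP1 (interval -0.11 to 0.34) and -0.17 ± 0.25 for AQP4 (interval -0.67 to 0.33). Compared with the mean of the purebred groups, the crosses gave 0 of 13 calls at day 90 (0.0495% of all tested probes called) and 0 of 13 at day 110 (0.0778%). At an unadjusted p under 0.05 there were 3 probes at each age: ATP1B1 probes 3, 4 and 5 at day 90 (0.17, 0.23 and 0.16) and the 3 AQP4 probes at day 110. On the brightest AQP4 probe the crosses at day 110 lay above the purebred mean by 0.39 ± 0.17 (interval 0.06 to 0.72), which did not pass the correction (adjusted p = 0.59).

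How alike the members varied among fetuses of a group was described by correlating residuals after removal of group and slide means. Between the brightest probes of different members the correlations over the 61 arrays ran from -0.34 (AQP4 with KCNJ11) to 0.19 (AQP1 with AQP4). Probes of the same gene gave 0.88 to 0.98 for the 3 pairs of AQP4 and 0.46 to 0.90 for the 10 pairs of ATP1B1. The pair of AQP1 probes with a value on all arrays gave 0.62, and the pair of KCNJ11 probes gave 0.30. Among 8652 symbols those most like AQP4 were CKM (0.68), the muscle creatine kinase, MPI (0.68), a mannose phosphate isomerase, and PTGR2 (0.67), a prostaglandin reductase. Most like ATP1B1 were PLCL2 (0.66), EGLN3 (0.62), an oxygen-dependent prolyl hydroxylase, and NDUFA4 (0.62), a subunit of the respiratory chain. Most like KCNJ11 were DMTF1 (0.72), a transcription factor, ZZEF1 (0.70) and CELF2 (0.66), an RNA-binding splicing regulator. These 3 values, and the -0.34 with AQP4, are of the brightest KCNJ11 probe, which could not be matched to a RefSeq transcript. The brightest AQP1 and AQP4 probes are also assigned through records that are not RefSeq transcripts. Most like AQP1 were CLDN11 (0.58), a tight junction protein, MELK (0.53), a kinase, and MYH2 (0.53), a fast myosin heavy chain. These arrays share slides and hybridization quality, so the values describe likeness in these 61 arrays only.

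The related genes were 123 genes in 8 lists, of which 77 had a probe that was tested. Over the 4 genotypes 38 rose and 24 fell, 80.5% of them, against 72.3% of all tested probes, and their median change was 0.23 against 0.04. MSMS was above LWLW for 7 and below for 2 at day 90 (11.7%, against 12.8% of all probes), and above for 11 and below for 17 at day 110 (36.4%, against 29%). With 75th percentile scaling the day 110 counts were 16 above and 13 below. The age change differed between MSMS and LWLW for 10 of the 77, 2 with a higher and 8 with a lower value in MSMS, and 8 of the 10 were called with 75th percentile scaling. That scaling gave 4 higher and 6 lower, and the slide as a block gave 3 higher and 12 lower. Values below are of the brightest probe of each gene.

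Of 10 tested Na,K-ATPase subunits and FXYD regulators, 4 rose and 5 fell. ATP1B3, another beta subunit, fell by 1.21 ± 0.05, opposite in direction to ATP1B1. ATP1B2 fell by 0.88. ATP1B4, which is in the list by its name, rose by 0.66, and whether its product works in the pump was not examined. FXYD2, the gamma subunit of the kidney pump, fell by 1.54 ± 0.11, and MSMS minus LWLW was -1.19 at day 90 and -1.27 at day 110. FXYD1, the regulator of the pump in muscle and heart, rose by 0.47.

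Among the inward rectifier and K-ATP channel subunits, the partners and relatives of KCNJ11, 3 of 7 tested genes rose and 3 fell. KCNJ2, the inward rectifier that holds the resting potential of muscle, rose by 1.07 ± 0.08 (adjusted p = 1.1e-17). Over the alternative settings its change was 0.52 to 1.08. KCNJ8, the pore subunit of the vascular channel, fell by 0.53 ± 0.05. ABCC9, the sulfonylurea receptor of muscle and vessel channels, fell by 0.58 ± 0.15 (adjusted p = 0.00042), and MSMS exceeded LWLW in it by 1.81 at day 90 and 1.07 at day 110. ABCC8, the sulfonylurea receptor of the beta cell channel, fell by 0.45. KCNJ13 rose by 0.45 on a probe well above background on 52 of 61 arrays, with 0.16 to 0.46 over the alternative settings. In KCNJ8 the age change was -0.19 in LWLW and -0.94 in MSMS, a difference of -0.75 ± 0.15 (adjusted p = 0.00034).

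For aquaporins other than AQP1 and AQP4, 4 of 9 tested genes rose and 3 fell. AQP7, a channel for glycerol and water, rose by 2.88 ± 0.17 (adjusted p = 3.1e-23), but its probe was well above background on all 29 arrays of day 110 and, at day 90, on just 1 LWLW, 2 MSMS, 3 LWMS and 4 MSLW arrays, and the change was 0.92 to 2.88 over the alternative settings. AQP3, also a glycerol channel, fell by 1.32 ± 0.09, and its 4 probes gave -1.39 to -0.46. AQP11 fell by 0.82 ± 0.10. AQP9 fell by 0.95 ± 0.19 on a probe near background, well above it on 24 of 61 arrays and on no LWLW array at day 110. No aquaporin of the list differed between MSMS and LWLW at day 90, and AQP3 alone was called at day 110 (-0.82), AQP1 and AQP4 being outside the list.

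The sodium and chloride channel lists were thinly covered. Of the voltage-gated sodium channel subunits 3 of 13 were tested. SCN8A, a neuronal alpha subunit, fell by 0.68 ± 0.10, with an age change of -0.12 in LWLW and -1.44 in MSMS. SCN3A rose by 0.27 ± 0.06. Of the ClC family 4 of 8 genes were tested: CLCN5, an endosomal exchanger, fell by 1.54 ± 0.09, CLCN4 rose by 0.85 ± 0.14, and CLCN6 (0.23, adjusted p = 0.051), well above background on 44 arrays, did not pass.

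Among voltage- and calcium-gated potassium channel subunits 9 of 14 tested genes rose and 3 fell. KCNC4 rose by 1.73 ± 0.08, KCNG2, a modifier subunit, rose by 1.38 ± 0.07, and KCNAB2, an auxiliary beta subunit, fell by 2.04 ± 0.07 (adjusted p = 4.3e-35). KCNAB1, a related beta subunit, went from 8.28 ± 0.38 (SD) to 9.54 ± 0.55 (SD) in LWLW (1.26, adjusted p = 2.6e-06) and from 10.15 ± 0.29 (SD) to 9.82 ± 0.80 (SD) in MSMS (-0.33, adjusted p = 0.23). KCNA5 fell by 0.71 on its brightest probe, but its 3 tested probes gave -0.71 to 0.32, so the direction rests on the probe.

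Of the exchangers, cotransporters and calcium pumps 5 of 15 rose and 6 fell. SLC12A2, the sodium, potassium and chloride cotransporter, rose by 1.53 ± 0.07 (adjusted p = 1.4e-28). SLC16A1, a lactate transporter, rose by 1.33 ± 0.09. SLC8A1, the sodium and calcium exchanger, fell by 1.37 ± 0.06, and ATP2B4, a calcium pump of the cell membrane, fell by 1.13 ± 0.05. Of the syntrophin, dystrophin complex and ankyrin genes, which hold AQP4 and the channels in place, 10 of 15 rose and 2 fell. The dystrobrevins DTNB (1.32 ± 0.07) and DTNA (1.08 ± 0.05) rose, DMD, dystrophin itself, rose by 0.57, and SNTB2, a syntrophin, fell by 1.14 ± 0.03. UTRN, utrophin, fell by 0.72.

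**Figure D4:**
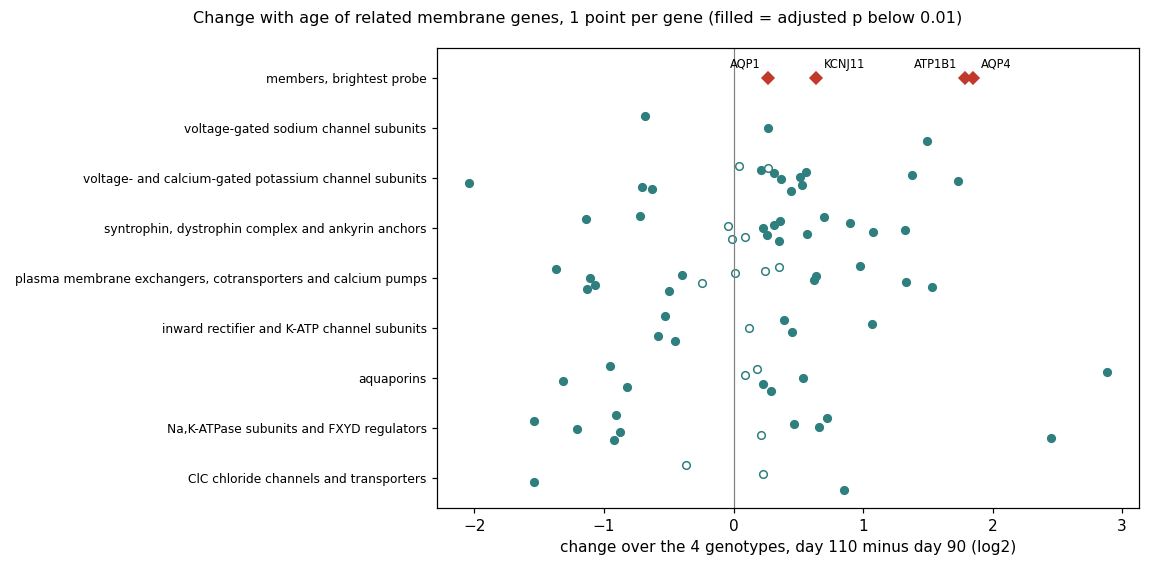
Change over the 4 genotypes (log2, horizontal axis) of the 77 tested related genes, 1 point per gene by list, with the brightest probes of the 4 members at the top; filled points had an adjusted p below 0.01. The point of KCNAB2 lies at -2.04 and that of SLC12A2 at 1.53, the point of AQP7 (2.88) is of a probe mostly not well above background at day 90, and every list holds genes on both sides of 0.

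Markers of cell types moved with age, and their part in the member results was not tested. Of the 9 myofibre markers 8 were tested, and 5 rose, 2 fell and 1 did not pass; their summed level was 1920000 to 2200000 intensity units at day 90 (31 fetuses with every marker measured) and reached 2250000 at day 110. The embryonic myosin MYH3 fell by 2.57. Quantile normalization gives every array the same set of values, so a sum over very bright probes can move little. The myofibre sums therefore do not show whether the share of myofibre RNA stayed the same. Of 10 endothelial markers 8 were tested, and 6 fell, including PECAM1 (-0.98), CDH5 (-1.22) and CLDN5 (-1.53), while VWF rose by 1.29. Their summed level was 58000 to 79900 at day 90 and 24900 to 44400 at day 110, lower at the age at which AQP1 was higher. Red cells carry AQP1 too. Red cell and erythroblast markers gave 3 that rose and 4 that fell of 8 tested, with sums of 5530 to 9070 and 3480 to 5680. These lists need not cover every cell with AQP1, and whether AQP1 changed within any cell type was not tested.

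All 8 fibroblast markers fell, from a summed level of 443000 to 581000 at day 90 to 91400 to 245000 at day 110. At day 110 7 of the 8 were lower in MSMS, with sums of 91400 to 119000 in MSMS and 146000 to 245000 in LWLW that did not overlap. This moved with the breed comparison at day 110, in which ATP1B1, AQP1 and AQP4 were higher in MSMS. Other lists also held calls at day 110. In MSMS 3 of 8 myofibre markers were higher and 1 was lower, and 2 of 5 satellite cell markers were higher. Of 9 smooth muscle and pericyte markers 1 was higher and 4 were lower, and 2 of 8 endothelial markers were lower. Endothelial sums were 25700 to 32200 in MSMS and 30400 to 41300 in LWLW. The part of these lists in the member results was not tested. At day 90 the fibroblast sums overlapped (478000 to 533000 in MSMS, 443000 to 575000 in LWLW), and other lists moved with the breed calls of the members. Schwann cell and nerve markers had sums of 23800 to 34800 in MSMS and 16700 to 22800 in LWLW, without overlap, with 2 of 7 higher in MSMS. Adipocyte markers had sums of 9090 to 16200 in MSMS and 15000 to 30600 in LWLW, with 2 of 6 lower in MSMS. Satellite cell sums were 4780 to 5870 in MSMS and 4010 to 4840 in LWLW, with 0 of 5 markers called. Of 9 smooth muscle and pericyte markers 3 were higher and 1 was lower in MSMS.

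With age, 2 of 5 satellite cell markers rose and 2 fell, and their sums were 4010 to 6210 at day 90 and 1970 to 3840 at day 110, without overlap. The counts were 1 up and 5 down of 9 smooth muscle and pericyte markers, with sums of 265000 to 351000 and 245000 to 329000. They were 2 up and 3 down of 6 adipocyte markers (9090 to 30600 and 11000 to 32200) and 4 up and 1 down of 7 Schwann cell and nerve markers (16500 to 34800 and 19800 to 35700). Of 6 leukocyte markers 0 rose and 3 fell (4450 to 6880 and 3470 to 5880).

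**Figure D5:**
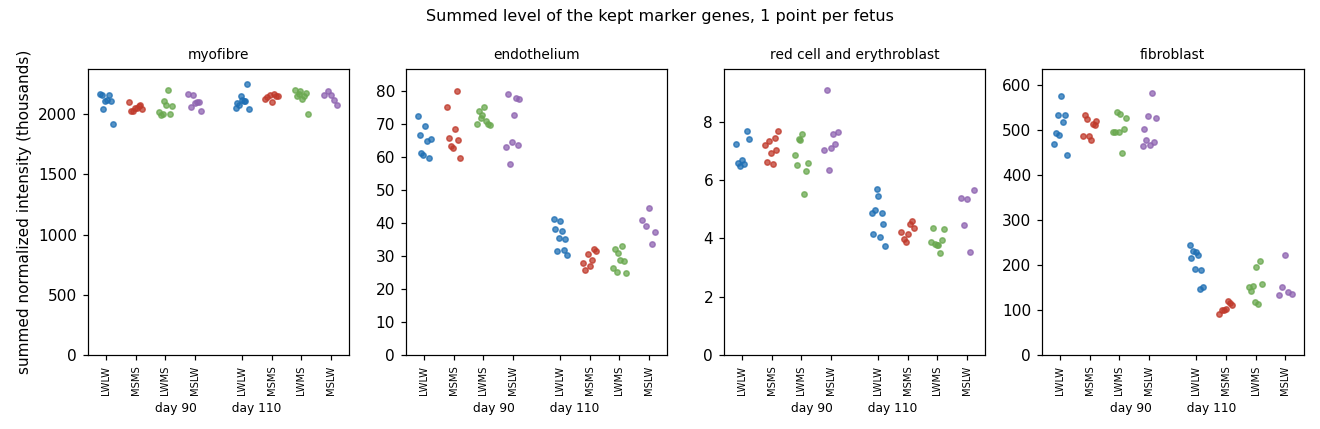
Summed normalized intensity of the tested markers (vertical axes from 0) of myofibre, endothelium, red cell and erythroblast, and fibroblast, 1 point per fetus with every marker measured, by genotype and gestational day. Endothelial and fibroblast sums are lower at day 110 than at day 90 without overlap, and myofibre sums lie within 1920000 to 2250000. Quantile normalization limits how far the sums of the very bright myofibre markers can move.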

How the data were processed

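Cy3-labelled RNA of fetal longissimus muscle was hybridized to a custom Agilent porcine array, 1 array per fetus. The authors deposited the scanner files, whose intensity values came from Agilent Feature Extraction 10.10.1.1, background-subtracted but not normalized between arrays. They also deposited a table of log2 values for 44368 spots, quantile normalized by the authors after quality control. Its rows were matched to the scanner spots by row number (Spearman correlation per array 0.995 to 0.999), and it served as an alternative.

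After removal of control spots, values of spots that the software flags for uneven signal (4 to 802 an array) were treated as missing. The processed intensity was put on the log2 scale after quantile normalization of all 61 arrays together. Probes entered the tests when, in 1 group or more, at least 80% of its arrays had them well above background (42436 probes). Per array, 34347 to 45684 probes were well above background, and the number of arrays limits the precision. Groups came from the labels. One limma fit of the 8 group means (limma 3.58.1, R 4.3.3) gave two-sided moderated tests, with Benjamini-Hochberg adjustment over all tested probes and a threshold of 0.01. The study's methods treat the sow as a random effect, for which the labels give no sow. Errors after ± are SE unless named SD. Genes were matched by the array's symbol, or else by RefSeq transcript.

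The members, gene lists and tests were chosen with earlier results of these data known. Of each list, the genes named were up to 4 with the largest age change and up to 4 whose age change differed between MSMS and LWLW; ATP1B2, ATP1B4, FXYD1, ABCC8, DMD, UTRN and the markers given by name were picked after their values were seen. Some genes that the rule selects are not reported here by name. The fit was tested on simulated data. Alternatives were 75th percentile scaling, normexp background correction, the median spot signal, the deposited values, uneven spots kept, 2 other filters, the slide as a block, no variance moderation, the purebred groups alone, and leaving out fetuses or slides. Figures were drawn with matplotlib 3.10.9.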

Additional observations from a re-analysis of the deposited data

Results flagged for a closer look

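Of the 104 combinations of member probe and group scanned for a fetus far from the rest of its group, 7 held one; by chance about 1 in 20 would. MSLW fetus 8 at day 90 was low on ATP1B1 probe 1 (12.2), ATP1B1 probe 2 (11.66) and KCNJ11 probe 1 (12.53), and its array had 537 spots marked as non-uniform. Without it the age change in MSLW was 1.67 on ATP1B1 probe 1, 1.53 on probe 2 and 0.59 on KCNJ11 probe 1, against 1.78, 1.70 and 0.68 with it, and all 3 still passed. LWLW fetus 3 at day 90 was high on ATP1B1 probe 3 (12.47), and MSLW fetus 3 at day 110 was low on ATP1B1 probe 2 (14.22). LWMS fetus 8 at day 110 was low on KCNJ11 probe 1 (13.12), and MSMS fetus 4 at day 110 was low on AQP1 probe 2 (8.61).

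The age change differed between MSMS and LWLW, by limma's test of the difference itself, for 10 related genes and for no member. The values, as the change in MSMS minus that in LWLW on the log2 scale, were -0.85 for FXYD6, -0.53 for ATP1B3, -0.75 for KCNJ8, 0.98 for SLC9A2 and -0.45 for DAG1. They were -0.36 for SGCB, -1.59 for KCNAB1, 1.07 for KCNG2, -1.04 for KCNA5 and -1.32 for SCN8A. Other probes of 2 of these genes went the other way: the values reached 0.45 over 3 probes for KCNA5 and 0.34 over 3 for SGCB. ATP1B3 passed in 7 of 9 alternative settings, DAG1 in 5 of 9 and SLC9A2 in 6 of 8.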

How the results depend on the processing

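Counts of member probes called in each comparison stayed within 1.5 times the main count under every alternative run. Of 3809 values of single probes under alternatives, 3769 kept their direction and their side of the threshold, 27 kept the direction but no longer passed, 13 newly passed and 0 reversed a call. All 27 lost calls were of AQP1 or of ATP1B1 probes 3 and 4. Over all tested probes, calls for the crosses against the purebred mean went from 21 to between 4 and 11 at day 90, and from 33 to between 9 and 21 at day 110, under normexp correction, median spot signal, the deposited values or probes above background on all arrays. Calls for LWMS against MSLW at day 110 fell from 387 to 238 without MSLW fetus 3 of day 110. Leaving out slides lowered further counts: the difference in age change from 2524 to between 1450 and 1651 without slide 1, 3, 4, 5 or 6, LWMS against MSLW at day 110 to between 199 and 246 without slide 3, 4 or 5, and the crosses at day 110 to between 16 and 20 without slide 1, 3 or 5, and at day 90 from 21 to 14 without slide 1. The share of higher calls for the crosses at day 110 went from 97% to 79.5% without MSLW fetus 3 and to 75.7% without slide 4, and that for LWMS against MSLW at day 110 from 40.6% to 27.5% without slide 1. On AQP1 probe 2 the age change in MSLW was 0.47 (adjusted p = 0.052) with marked spots kept, against 0.67. Leaving out slides, or MSLW fetuses 2 or 8 of day 90, was chosen after seeing the data. No paired analysis was possible, because each fetus was measured at 1 age only and the labels do not give its sow. The slide as a block, which sets fetuses of 1 slide side by side, newly called AQP1 probe 1 at day 110 (0.32) and AQP1 probe 3 at day 90 (0.48) for MSMS against LWLW, and changed no other call of the 13 probes. Signal over background limits AQP7, AQP9, CLCN6 and KCNJ13 among the related genes and no member probe.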
